A study of Mus musculus with 4 samples.

Results

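The MAP kinase phosphatases examined here were 10 genes of the dual-specificity phosphatase family: Dusp1, Dusp3, Dusp4, Dusp5, Dusp6, Dusp7, Dusp8, Dusp10, Dusp14 and Dusp16. They were chosen by platform gene symbol, which found 18 of the 45101 probe sets on the array. A probe set is a group of short probes to the same transcript, and each is given separately. RNA from cultured fibroblasts of mouse embryos (MEFs) was hybridized to 4 Affymetrix arrays of the mouse genome. The groups were Wip1+/+ cells without irradiation (labelled 0 h), Wip1+/+ cells 4 h after 5 Gy of gamma radiation, and the corresponding unirradiated and irradiated Wip1-/- cells. Each group held 1 array. The series was set up to look at targets of p53 after radiation. No array holds unirradiated cells at 4 h, so radiation and 4 h of culture cannot be told apart.

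MAP kinases carry signals from growth factors and stress, and are active when a threonine and a tyrosine of their activation loop are phosphorylated. Dual-specificity phosphatases remove both phosphates and so end the signal. Many are themselves induced by the kinases they restrain, which makes a feedback loop. Wip1, the product of Ppm1d, is a serine/threonine phosphatase that removes the threonine phosphate of p38, so p38 lies downstream of Wip1 and of several Dusp proteins alike.

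Dusp8 was the member with the widest differences in these data, by 1 dim probe set with a 4.58-fold range over the 4 arrays. Another of its probe sets had a 1.37-fold range. The Dusp8 promoter holds 2 copies of the cyclic AMP response element, the site bound by CREB and ATF factors. Whether promoter elements bear on the differences between arrays was not tested. The 160 bases before the start of transcription are shown for Dusp8, for Dusp1, which holds 1 copy and differed little between arrays, and for Dusp5, which holds another kind of element. Sequences are from RefSeq, build GRCm38.p6, 5′ to 3′ on the gene's strand. Dusp8 lies at chr7:142095285-142095444 on the minus strand, Dusp1 at chr17:26508473-26508632 on the minus strand and Dusp5 at chr19:53528985-53529144 on the plus strand. Capitals mark the cyclic AMP response element TGACGTCA in Dusp8 and Dusp1, and 2 adjacent CArG boxes, the core of the serum response element, in Dusp5.
Dusp8: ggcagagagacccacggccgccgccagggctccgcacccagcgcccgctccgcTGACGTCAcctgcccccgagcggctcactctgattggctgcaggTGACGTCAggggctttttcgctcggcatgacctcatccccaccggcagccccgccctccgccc
Dusp1: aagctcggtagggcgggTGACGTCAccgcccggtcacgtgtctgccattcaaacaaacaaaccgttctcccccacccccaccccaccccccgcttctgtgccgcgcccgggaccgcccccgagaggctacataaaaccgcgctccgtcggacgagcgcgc
Dusp5: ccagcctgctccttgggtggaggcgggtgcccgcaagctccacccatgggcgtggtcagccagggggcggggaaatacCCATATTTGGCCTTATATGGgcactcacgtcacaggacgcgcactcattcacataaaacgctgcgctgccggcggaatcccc

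Of the 10 members 9 had a promoter entry, a window of 250 bases before and 50 after the start, and Dusp4 had none. Each window was searched on both strands for TGACGTCA, for the AP-1 site TGANTCA, for the CArG box and for the p53 half-site. The first was found in Dusp1, beginning 143 bases before the start, and in Dusp8, at 107 and 63 bases. Of all 32851 windows 1.79% held it, and 0.0396% held it at 2 or more places. The CArG box was found in Dusp5, at 82 and 72 bases before the start, against 1.63% of all windows with at least 1 and 0.0183% with 2 or more. The AP-1 letters were in 0 of the 9 windows and in 7.81% of all windows, and the p53 half-site in 0 of the 9 and in 8.36%. No match of 1 motif overlapped a match of another in these 9 windows. A match describes these letters only and is no measure of binding.

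All arrays had been scaled to 1 target, with a trimmed mean signal of 500 on each, and their median signals lay between 68.4 and 85.8. The array labelled Wip1-/- unirradiated stood apart: log2 ratios of the 18 spike-in controls, foreign transcripts put into every hybridization, had an SD of 0.44 to 0.47 in the 3 array pairs that include it and of 0.07 to 0.10 in the 3 that do not. Ppm1d itself did not check the labels. Its brighter probe set read 375 and 364 in Wip1+/+ cells, unirradiated and irradiated, against 504 and 482 in the other cells, and the dimmer one read 317 and 463 against 219 and 561. Whether these probes fall in the deleted stretch is not known here, so the knockout samples are called labelled Wip1-/-. All 10 fibroblast markers were above the floor of 46.5, the 40th percentile of all values, on every array. The summed signal of 15 macrophage markers was 10199 (unirradiated) and 10332 (irradiated) in Wip1+/+ cells, against 2777 and 2390 in cells labelled Wip1-/-. Itgam was under the floor on all 4 arrays and Fcgr3 on both arrays labelled Wip1-/-, as was Fcer1g on the unirradiated one, while Lyz2 read 4533 and 4986 against 899 and 673. Summed endothelial markers (5 genes) lay between 372 and 506, and epithelial ones (4 genes) between 717 and 1167, on the 4 arrays. The macrophage signal thus moved with the genotype label, and its part in the genotype differences below was not tested. In such bulk RNA, fewer cells of a type and less RNA per cell cannot be told apart.

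Of the 18 member probe sets, 16 passed a filter on dim signals, a mean of at least 67.97 over the 4 arrays, and all 10 genes kept at least 1. The 2 that did not pass, 1 of Dusp8 and 1 of Dusp16, read between 2.2 and 15.6. The dimmest one that passed, of Dusp10, had a mean of 95.9. Each group held 1 array, so no ratio between arrays has a replicate check or a p-value. A probe set was counted where signals differed at least 2-fold, beside the share of all 20323 probe sets that did so. The only measure of error was how far probe sets of the same gene differed. The SD of their log2 ratios was 0.37 for irradiation of Wip1+/+ cells, 0.62 for irradiation of cells labelled Wip1-/-, 0.65 between unirradiated genotypes and 0.41 between irradiated ones. Among probe sets with a mean of 500 or more the SD was 0.18, 0.54, 0.55 and 0.23, in the same order. It does not cover differences between cultures. Over all 4 arrays together, a limma fit with genotype and irradiation as additive terms was made, chosen after the data were seen. Its 1 residual degree of freedom reflects how far the irradiation response differed between genotypes. As its error the fit combined this with a prior variance drawn from all probe sets, with 5.6 degrees of freedom. At an adjusted p under 0.05 it called 0 of the 16 member probe sets for genotype, against 0.221% of all, and 0 for irradiation, against 0% of all. At an unadjusted p under 0.05 it called 1 for each effect, against 8.98% and 5.66% of all. These were the dimmest probe set of Dusp3 for genotype, with a limma adjusted p = 0.527 and a log2 effect of 0.75, and the dimmest of Dusp7 for irradiation, with a limma adjusted p = 0.874 and a log2 effect of -0.85.

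**Figure D1:**
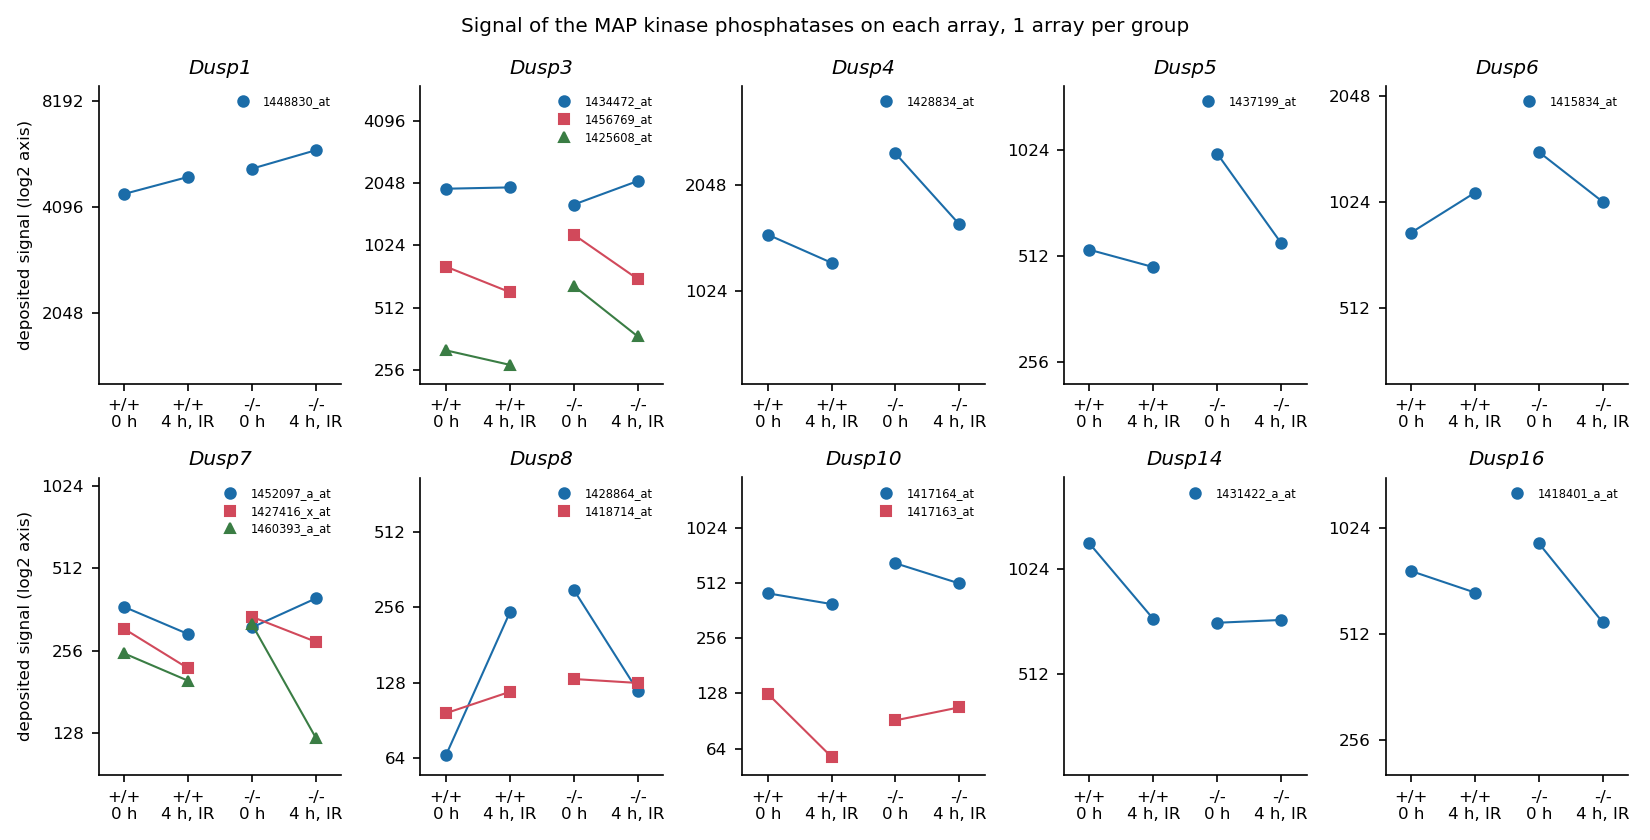
Deposited signal (log2 axis) of the 16 member probe sets on the 4 arrays, 1 panel per gene. Symbols and colours are probe sets and lines join the 2 arrays of a genotype (IR, irradiated). Dusp4, Dusp5 and Dusp16 were highest on the array labelled Wip1-/- at 0 h, Dusp1 differed little, and the brighter Dusp8 probe set went opposite ways in the 2 genotypes.

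The nuclear, inducible phosphatases Dusp1, Dusp4 and Dusp5 differed by 1.12- to 1.20-fold after irradiation of Wip1+/+ cells. Dusp1, an immediate early gene whose product acts on p38, JNK and ERK, read 4450.0 and 4974 in Wip1+/+ cells, unirradiated and irradiated, and 5249.7 and 5925 in cells labelled Wip1-/-. Its log2 ratio after irradiation was 0.16 and 0.17 in the 2 genotypes, both under the SD between probe sets. Of the 16 probe sets tested it had the closest agreement between the genotypes' ratios, and its lowest and highest arrays were 1.33-fold apart.

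Dusp4, which acts on ERK and JNK in the nucleus, read 1484 and 1234 in Wip1+/+ cells and 2524 and 1587 in cells labelled Wip1-/-. The unirradiated array labelled Wip1-/- was the high one, 1.70-fold over unirradiated Wip1+/+, and the other 3 lay between 1234 and 1587. Dusp5, a nuclear phosphatase of ERK, had the same order of arrays. It read 532 and 475 in Wip1+/+ cells, and 998 and 556 in cells labelled Wip1-/-. Its log2 ratio between unirradiated genotypes was 0.91, or 1.87-fold, and that between irradiated genotypes 0.23. The lower value after irradiation in cells labelled Wip1-/-, a log2 ratio of -0.84, uses the same unirradiated array.

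The cytoplasmic phosphatases of ERK were Dusp6 and Dusp7. Dusp6, a feedback inhibitor of growth factor signalling, read 836 and 1087 in Wip1+/+ cells, which was 1.30-fold higher after irradiation. In cells labelled Wip1-/- it read 1417 and 1023, which was 1.39-fold lower. The irradiated arrays were thus close, with a log2 ratio of -0.09 between genotypes, and the unirradiated ones differed, with 0.76. Dusp7 had 3 probe sets, and they disagreed on the arrays labelled Wip1-/-. The brightest read 370 and 295 in Wip1+/+ cells, and 312 and 398 in cells labelled Wip1-/-. The next read 308 and 221, and then 341 and 276. The dimmest read 250.5 and 199 in Wip1+/+ cells, and 320 and 123 in cells labelled Wip1-/-, a 2.59-fold lower value after irradiation. In Wip1+/+ cells the log2 ratios of all 3 after irradiation lay between -0.48 and -0.33. In cells labelled Wip1-/- they ran from -1.37 to 0.35, a spread of 1.73, so the 2.59-fold value rests on 1 of 3 probe sets.

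Dusp8, Dusp10 and Dusp16 are phosphatases that prefer p38 and JNK over ERK. The brighter Dusp8 probe set read 65.7 in unirradiated and 244 in irradiated Wip1+/+ cells, a 3.72-fold higher value. In cells labelled Wip1-/- it read 301 and 119, which was 2.53-fold lower. Irradiation thus went opposite ways, and the 2 arrays labelled Wip1-/- fell on opposite sides of their Wip1+/+ counterparts. Unirradiated, the array labelled Wip1-/- was 4.58-fold higher, and irradiated it was 2.05-fold lower. In Wip1+/+ cells its ratio was number 17 from the top of all 20323 probe sets, and between unirradiated genotypes number 42. The other Dusp8 probe set that passed did not show this. It read 96.7 and 118 in Wip1+/+ cells and 132 and 128 in cells labelled Wip1-/-, with log2 ratios after irradiation of 0.28 and -0.05. Both had means under 200, and the spread of 1.61 between their Wip1+/+ ratios was larger than the SD between probe sets of 0.37.

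The brighter Dusp10 probe set read 449.6 in unirradiated and 393 in irradiated Wip1+/+ cells, and 655 and 509 in cells labelled Wip1-/-. Both arrays labelled Wip1-/- were above both Wip1+/+ arrays. The dimmer one read 127.5 and 57.6 in Wip1+/+ cells, 2.21-fold lower after irradiation, against 91.2 and 107 with the Wip1-/- label. The probe sets of Dusp10 thus had the same sign after irradiation of Wip1+/+ cells, with log2 ratios of -0.20 and -1.15, and opposite signs in cells labelled Wip1-/-, with -0.37 and 0.24. Dusp16 read 775 and 673 in Wip1+/+ cells, and 929 and 554 in cells labelled Wip1-/-. Its highest and lowest arrays were both labelled Wip1-/-, 1.68-fold apart.

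Dusp3 and Dusp14 encode small phosphatases that lack the kinase-binding domain of the other members. The brightest of 3 Dusp3 probe sets read 1924 and 1953 in Wip1+/+ cells, and 1613 and 2096 in cells labelled Wip1-/-. The middle one read 809 and 609, and then 1155 and 705. The dimmest read 319 and 271 in Wip1+/+ cells, and 653 and 372 in cells labelled Wip1-/-, so that the unirradiated array labelled Wip1-/- was 2.05-fold higher. The middle and dimmest were both highest on that array and lowest on irradiated Wip1+/+, and the brightest went the other way on the unirradiated arrays, with a log2 ratio of -0.25 between genotypes against 0.51 and 1.04. Dusp14 read 1206 in unirradiated and 736 in irradiated Wip1+/+ cells, against 718 and 731 with the Wip1-/- label. The other 3 arrays thus lay between 718 and 736, and the unirradiated Wip1+/+ array was 1.64-fold over irradiated Wip1+/+ and 1.68-fold over unirradiated Wip1-/-.

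**Figure D2:**
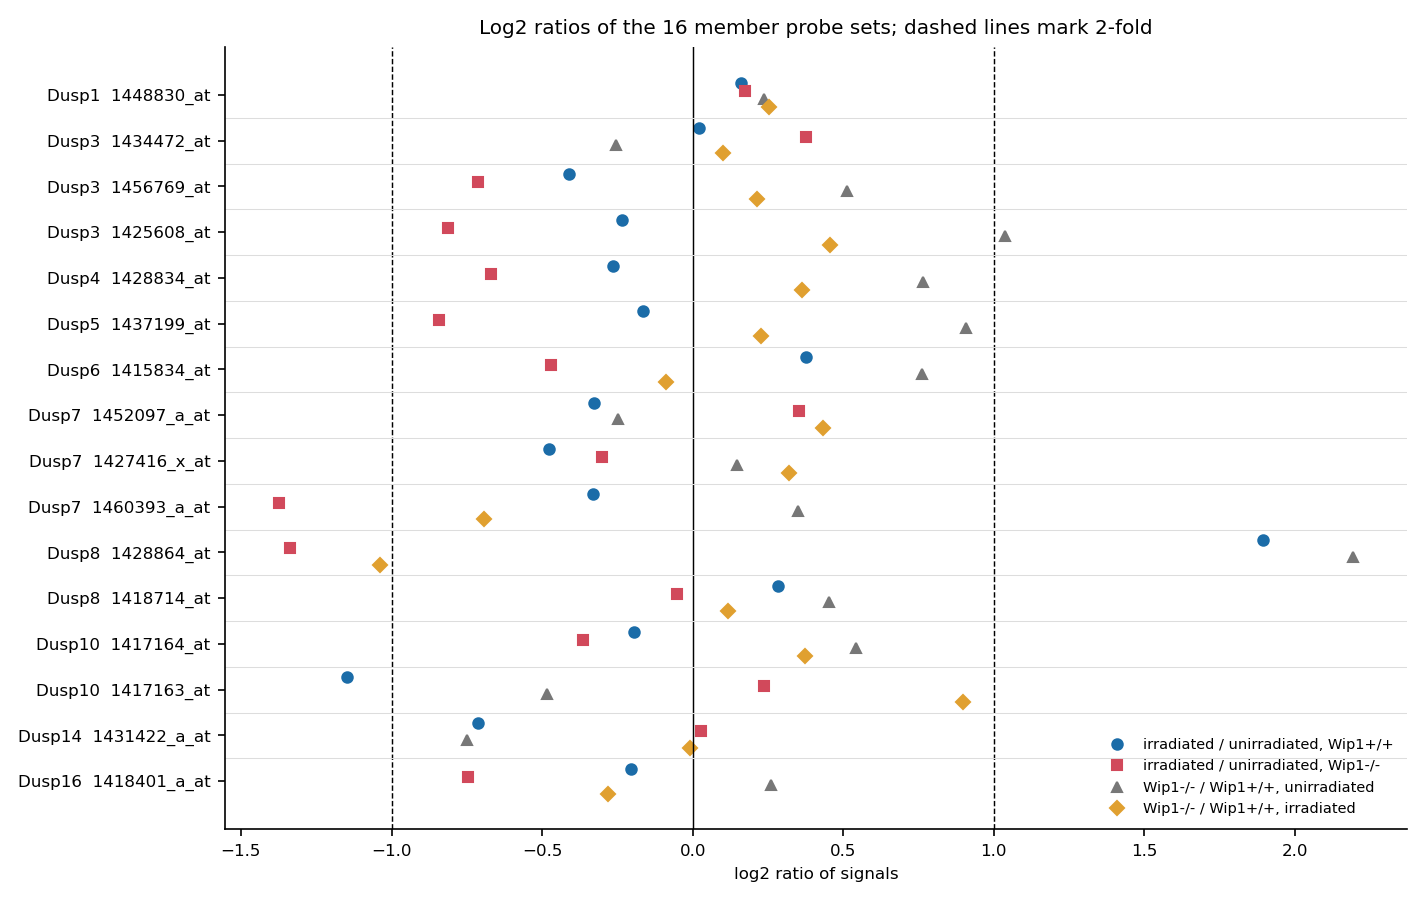
Log2 ratio of each of the 16 member probe sets in the 4 comparisons, with dashed lines at 2-fold. Most points lie within 2-fold. The brighter Dusp8 probe set is past 2-fold in all 4 comparisons, at 1.89, -1.34, 2.19 and -1.04.

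The first comparison asked what differs 4 h after damage in cells that have Wip1. Of the 16 member probe sets, 11 were lower after irradiation and 5 higher, with a median log2 ratio of -0.22, while the median of all probe sets was 0 and 49.7% of them were higher. Past 2-fold, 1 was higher (Dusp8) and 1 lower (Dusp10), against 1.54% and 1.97% of all probe sets. Both were among the 7 member probe sets with a mean signal under 500, and of all probe sets that dim 2.93% were higher and 3.76% lower. None of the 9 member probe sets with a mean of 500 or more, from 8 genes, passed 2-fold. Of all probe sets that bright 0.0408% were higher and 0.0511% lower past 2-fold, so 0 of 9 is near that share. The log2 ratios of the 9 lay between -0.71 (Dusp14) and 0.38 (Dusp6).

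Irradiation of cells labelled Wip1-/- asked whether that response differs without Wip1. Again 11 member probe sets were lower and 5 higher, with a median log2 ratio of -0.42 against -0.01 for all probe sets, of which 50.9% were lower. Past 2-fold, 0 were higher, against 6.66% of all, and 2 were lower (Dusp7 and Dusp8), against 4.8%. When the arrays were set to equal medians over their brighter probe sets, these shares of all were 5.67% and 6.2%, and the members' counts were the same. This ratio uses the unirradiated array that stood apart in its spike-in controls, and it cannot be formed without that array. Across the genotypes, whose irradiation ratios share no array, 8 probe sets were lower in each, 2 were higher in each and 6 went opposite ways, against 5485, 5255 and 9459 of all 20323 probe sets, or 25.9% higher in each and 46.5% opposite. Those lower in each were 2 of Dusp3, 2 of Dusp7, 1 of Dusp10, and Dusp4, Dusp5 and Dusp16. Those higher in each were Dusp1 and the brightest of Dusp3.

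The response of cells labelled Wip1-/- minus that of Wip1+/+ cells was at least 1 on the log2 scale for 1 member probe set, against 8.22% of all, and at most -1 for 2, against 6.68%. These were the dimmer Dusp10 probe set (1.38), the dimmest of Dusp7 (-1.04) and the brighter of Dusp8 (-3.23). The difference was not tested, since each response rests on 1 pair of arrays. Among member probe sets with a mean of 500 or more, the most positive difference was that of Dusp14 (0.74) and the most negative that of Dusp6 (-0.85).

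**Figure D3:**
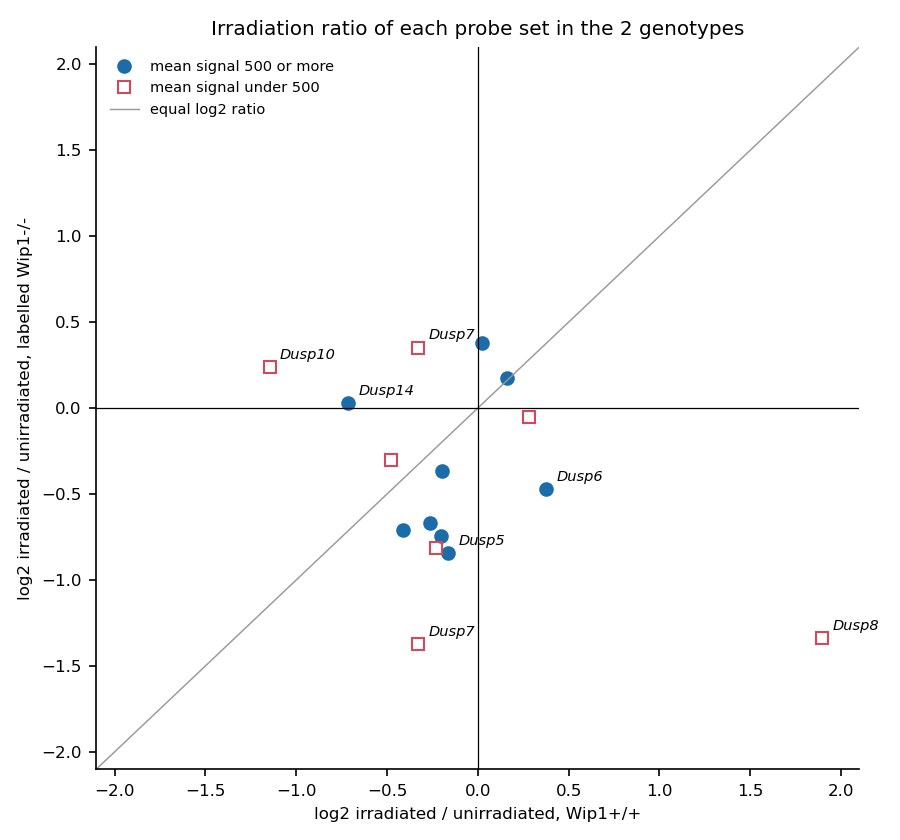
Log2 ratio after irradiation in Wip1+/+ cells (x) and in cells labelled Wip1-/- (y) for the 16 member probe sets, filled where the mean signal was 500 or more. The diagonal marks equal ratios, and Dusp8 (1.89 and -1.34) lies farthest from it.

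Before irradiation, the comparison of genotypes asked which genes differ without damage. Of the 16 member probe sets 12 were higher on the array labelled Wip1-/- and 4 lower, with a median log2 ratio of 0.40 against 0.02 for all probe sets, of which 51.3% were higher. Past 2-fold, 2 were higher (Dusp3 and Dusp8), against 5.57% of all, and 0 lower, against 7.72%. Dusp5, Dusp4 and Dusp6 were under 2-fold, at log2 ratios of 0.91, 0.77 and 0.76. This comparison shares its unirradiated Wip1-/- array with the irradiation ratios given above, so a high value on that array enters both. Of the 16 probe sets 11 had their highest signal of the 4 arrays there, against 37.7% of all probe sets. Those 11 came from 8 of the 10 genes, Dusp1 and Dusp14 being the others. Set instead against the mean of both Wip1+/+ arrays, the irradiated array labelled Wip1-/- gave a member median of 0.13 and 0 probe sets past 2-fold in either direction, with Dusp8 at -0.090 and Dusp3 at 0.34 by the probe sets named above. Dusp5, Dusp4 and Dusp6 were then at 0.15, 0.23 and 0.10. This ratio mixes irradiated and unirradiated cells, so it is not the same comparison with an array left out. Of the 16 probe sets 6 had the opposite sign to that in the unirradiated comparison, against 41.0% of all: the brighter of Dusp8, the brightest of Dusp3, the brightest and the dimmest of Dusp7, the dimmer of Dusp10, and Dusp16.

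The irradiated arrays of the 2 genotypes were closer than the unirradiated ones, for members and for all probe sets alike. The unirradiated pair includes the array that stood apart, with a spike-in SD of 0.465 against 0.095 for the irradiated pair. An effect of irradiation and one of that array cannot be told apart here. The member median was 0.22 against 0.01 for all probe sets, with 11 higher and 5 lower on the array labelled Wip1-/-, and 51.0% of all higher. Past 2-fold, 0 were higher, against 2.71% of all, and 1 was lower (Dusp8), against 2.76%. The dimmer Dusp10 probe set followed at 1.87-fold higher and the dimmest of Dusp7 at 1.62-fold lower. The 9 member probe sets with a mean of 500 or more were within 1.30-fold. Of all probe sets that bright, 0.531% were higher and 0.705% lower past 2-fold.

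Agreement within a gene could be examined for the 4 genes with more than 1 probe set that passed. Over 4 comparisons, all probe sets of a gene had the same sign in 7 of 16 cases. Dusp3 did so in 1 of its 4, Dusp7 in 1, Dusp8 in 3 and Dusp10 in 2. The same count was not made over all genes, so 7 of 16 has no share to be set against. The comparisons also share arrays, so the 16 cases are not independent. The other 6 genes rest on a single probe set.

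The kinases and targets around the phosphatases were taken from lists of textbook genes, by the brightest probe set of each gene unless another is named. In the ERK module 5 of 8 listed genes were measured past the filter, in the p38 module 8 of 9 and in the JNK module 6 of 8. Of all probe sets, 1.54% to 7.72% passed 2-fold in a given direction, depending on the comparison. After irradiation of Wip1+/+ cells 1 of these genes passed 2-fold by that probe set: Ksr1, a scaffold of the ERK cascade, read 135 and 24.7, at least 2.90-fold lower against the floor. In cells labelled Wip1-/- it read 33.2 and 166.5, at least 3.58-fold higher. Between genotypes it was thus at least 2.90-fold lower on the unirradiated and at least 3.58-fold higher on the irradiated array labelled Wip1-/-. The low array of each pair was below the floor, and the directions were the reverse of those of the brighter Dusp8 probe set. Map2k2, a kinase that activates ERK, read 2893 and 1443 in cells labelled Wip1-/-, 2.00-fold lower after irradiation, but its other probe set read 709 and 683. Map3k1, a kinase upstream of JNK, read 132 and 32.7 there, at least 2.84-fold lower, and its irradiated array was at least 2.24-fold below that of Wip1+/+ cells. Between genotypes, Mapk12, a p38 kinase, was 2.16-fold higher and Mapk8ip1, a JNK scaffold, 2.23-fold higher on the unirradiated array labelled Wip1-/-. Mapk13, another p38 kinase, was 2.31-fold lower on the irradiated one, at 279 against 643. Dimmer probe sets of 4 of these genes also passed 2-fold, where the brightest of the same gene did not. After irradiation of Wip1+/+ cells 1 of Mapk14 had a log2 ratio of 1.25 and 1 of Araf, a RAF kinase, -1.01, and between irradiated genotypes they had -1.02 and 1.07. Another of Araf had 1.37 between unirradiated genotypes. For Braf, also a RAF kinase, 1 had 2.08 after irradiation of cells labelled Wip1-/- and -2.31 between unirradiated genotypes, with a signal of 9.8 on the array they share, below the floor. For Mapk8, a JNK kinase, 1 had 1.28 and 1.20 between unirradiated and irradiated genotypes.

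Mapk14, the main p38 kinase, read 2005 and 2317 in Wip1+/+ cells and 1795 and 2481 in cells labelled Wip1-/-. The median log2 ratios after irradiation were -0.10, 0.11 and 0.13 for the ERK, p38 and JNK modules in Wip1+/+ cells, and -0.18, -0.22 and -0.64 in cells labelled Wip1-/-. All 3 were lower in the latter, where the SD between probe sets was larger and the ratios use the array that stood apart. Probe sets of some JNK module genes disagreed there. Map2k4 had log2 ratios of -0.86 (brightest) and 0.31, and Map3k4 0.95 (brightest) against -0.33 to 0.03. The dimmer ones of Mapk8 went both ways, and those of Mapk9 were lower like its brightest, at -0.09 and -0.26.

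ERK also induces Sprouty and Spred proteins, which inhibit the cascade above it. Of 7 such genes 6 were measured. By the brightest probe set of each, 0 passed 2-fold in any of the 4 comparisons. Of all probe sets, 1.54% to 7.72% did so in a given direction, so 0 of 6 is near that share. A dimmer probe set of Spred1 read 79.2 and 223 in cells labelled Wip1-/-, with log2 ratios of 1.49 after irradiation there and -1.50 between unirradiated genotypes, and 1 of Spred2 had 1.15 between unirradiated genotypes. After irradiation 5 of 6 were higher in Wip1+/+ cells and 4 of 6 in cells labelled Wip1-/-, with medians of 0.17 and 0.15. Spry2 read 803 and 1128 in Wip1+/+ cells, and Spry4 read 196 and 240.2. Among 15 genes that respond to ERK, 2 were past 2-fold after irradiation of Wip1+/+ cells, both higher, where 1.54% of all probe sets were higher and 1.97% lower. These were the transcription factors Egr1, which read 1617 and 3701, and Fos, which read 206 and 413. In cells labelled Wip1-/- they were Fos, read at 25.6 and 291 and so at least 6.27-fold higher, and Fosl1, 2.31-fold higher, against 6.66% of all probe sets. Both were lower on the unirradiated array labelled Wip1-/- than on that of Wip1+/+ cells, Fos at least 4.44-fold and Fosl1 2.03-fold, though the other Fosl1 probe set had a log2 ratio of -0.66. Etv4, an ETS transcription factor, was under the floor on both Wip1+/+ arrays and read 79.4 and 145 in cells labelled Wip1-/-, at least 3.13-fold higher between irradiated genotypes. A dimmer probe set of Egr2, a relative of Egr1, had a log2 ratio of 1.06 there. The list's median was 0.20 in Wip1+/+ cells and 0.01 in cells labelled Wip1-/-. In irradiated Wip1+/+ cells 8 of the 15 genes were higher, Egr1 and Fos among them, and 6 were lower. In the same cells Dusp6 was 1.30-fold higher, and Dusp1, Dusp4 and Dusp5 had log2 ratios of 0.16, -0.27 and -0.16. Whether these targets and the phosphatases move together was not tested.

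**Figure D4:**
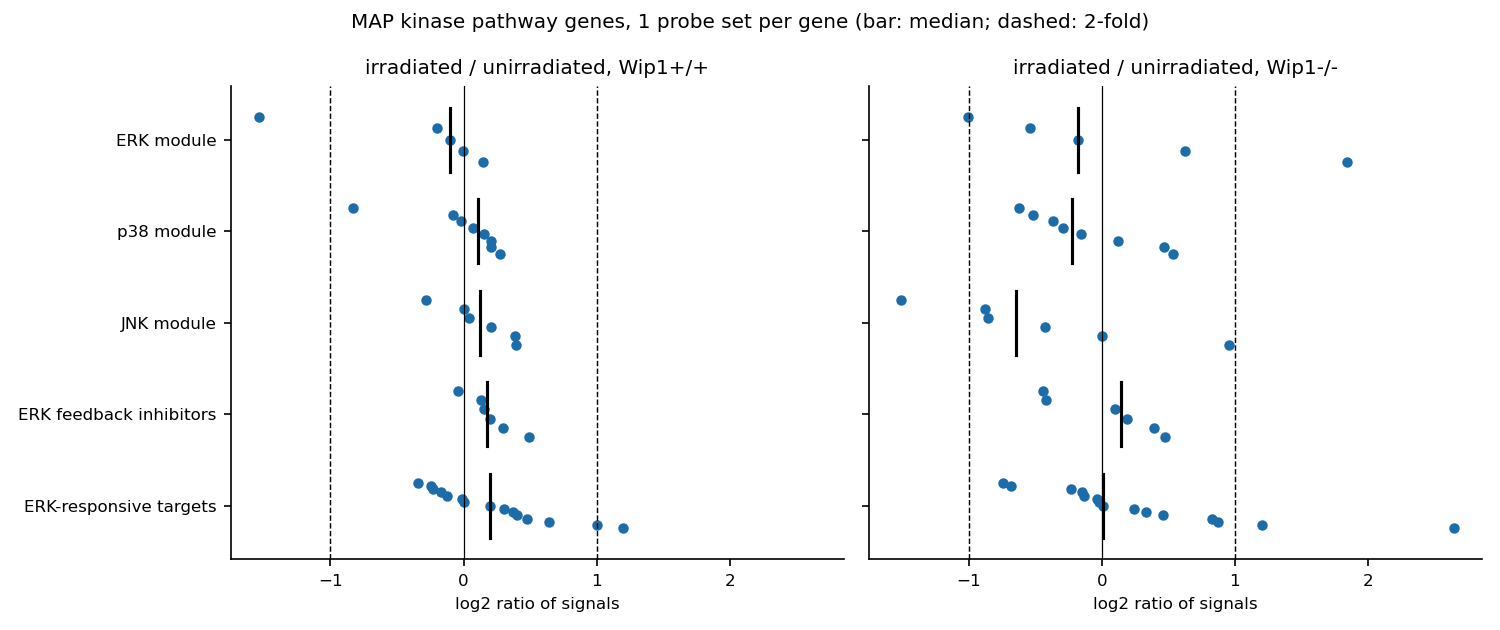
Log2 ratio after irradiation of MAP kinase pathway genes in each genotype, 1 point per gene, with the list median as a bar and 2-fold as dashed lines. Most genes lie within 2-fold, and the spread is wider in cells labelled Wip1-/- (right).

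Of the remaining MAP kinase phosphatases, Dusp2 read 120.0 and 80.8 in Wip1+/+ cells, and 11.9 and 82.3 in cells labelled Wip1-/-. It was at least 2.58-fold lower on the unirradiated array labelled Wip1-/-, where most members were high. The brightest of 3 Dusp9 probe sets read 148 and 215 in Wip1+/+ cells, and 259.5 and 213 in cells labelled Wip1-/-. The next read 169 and 157, and then 280.2 and 188, and the dimmest 132 and 147, and then 116 and 96.1. The first pair of probe sets was highest on that array and the dimmest was not. Of the tyrosine phosphatases that bind MAP kinases, Ptpn5 and Ptprr did not pass the filter, with mean signals of 41.0 and 12.1, and Ptpn7 was not analysed here.

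The genes whose pattern over the 4 arrays was nearest to a member's were sought for Dusp5, the member with the widest range among those with a mean of 500 or more. Likeness was the largest gap on any array between log2 signals centred on their mean. The nearest were Bola2 (0.03), Ajuba (0.04), Hoxb3 (0.04), Flrt2 (0.05) and Phgdh (0.05), with Pearson r over 4 arrays of 0.998 to 0.999. All 5 were high on the unirradiated array labelled Wip1-/-, such as Ajuba, a LIM domain protein, which read 3352 and 3069 in Wip1+/+ cells and 6637 and 3651 in cells labelled Wip1-/-. These points share their arrays and scaling, and 3213 probe sets with a mean of 500 or more had a gap no larger than 0.55, the larger SD between probe sets at that brightness.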

How the data were processed

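The authors deposited 1 linear signal intensity per probe set and array. GCOS, the Affymetrix software, made them, per the submitters' processing notes. No version, background step or scaling target was recorded in the labels. Signals were used as deposited, with values under 46.5 set to that floor before log2. Names came from the platform's annotation, checked by gene identifier against RefSeq (GRCm38.p6), which changed 0 symbols. Of 45037 that were not controls, 34945 had 1 symbol, and 20323 of these had a mean of at least 67.97, the median over all, and were compared. No value was negative or missing.

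With 1 array per group the ratios have no test, and precision is limited by the number of arrays. An additive limma fit over all 4 arrays was added after the data were seen. Ratios and fit were tested on simulated data. Every member probe set was named. Pathway genes past 2-fold were named, at most 4 per list and comparison, with other probe sets of the same genes, and other pathway examples were chosen with their values in view. Members and lists were chosen with earlier results of these data known. R 4.3.3 with limma 3.58.1 and Python 3.11.15 were used. Alternatives changed the scaling (quantile, cyclic loess, median of brighter probe sets), the floor, the filter, the probe sets used, the value per gene and the array that stood apart.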

Additional observations from a re-analysis of the deposited data

Results flagged for a closer look

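For 2 member probe sets the irradiated array lay on opposite sides of the unirradiated one in the 2 genotypes and the log2 responses were at least 1 apart, as they were for 11.5% of all probe sets. The difference was not tested, as each genotype has 1 pair of arrays. The brighter Dusp8 probe set had a response in cells labelled Wip1-/- minus that in Wip1+/+ cells of -3.23, from 65.7 and 244 in Wip1+/+ cells and 301 and 119 in the others. The dimmer Dusp10 probe set had one of 1.38, from 127.5 and 57.6 against 91.2 and 107. In each gene another probe set had a difference under 1 in size, -0.34 for Dusp8 and -0.17 for Dusp10.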

How the results depend on the processing

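No paired analysis was possible because the 4 groups share only 1 replicate number. Across the alternatives, 116 of 131 values of the counts and medians and 502 of 508 log2 ratios of single probe sets stayed near those given. Near meant a count within 1.5-fold, or a ratio or median moved by less than the SD between probe sets, 0.37 to 0.65. Most member ratios were smaller than that SD, so a value could stay near and change sign. With the array that stood apart left out, Dusp16 counted as near at -0.38 against 0.26. The member median then counted as near at 0.13 against 0.40. Many of the single ratios could not change. No tested member was under the floor, and filters only drop probe sets, so the floor, filter and probe-set settings left each ratio unchanged. The single ratios that did not stay near all came from leaving out the array that stood apart. The member medians kept their sign in all alternatives run. With the filter at the 67th percentile 12 member probe sets were left, and counts past 2-fold were 0 higher and 0 lower for irradiation of Wip1+/+ cells, 0 lower for cells labelled Wip1-/-, 1 higher between unirradiated genotypes, 0 lower between irradiated genotypes and 0 for the response difference, since the dim probe sets no longer entered. With the brightest probe set per gene, they were 0 lower (Wip1+/+ irradiation), 1 lower (Wip1-/- irradiation) and 1 higher (unirradiated genotypes). With each gene at the median of its probe sets they were 0 lower, 0 lower and 1 higher, and 0 lower between irradiated genotypes. Under quantile normalization 0 were lower between irradiated genotypes, as Dusp8 moved to -0.99. Without the unirradiated array labelled Wip1-/-, by the irradiated one over the mean of both Wip1+/+ arrays, 0 were higher and Dusp8 was at -0.090. This ratio mixes irradiated and unirradiated cells, so it is not the same comparison. In it 6 of 16 member probe sets changed sign (of Dusp3, Dusp7, Dusp8, Dusp10 and Dusp16), against 41.0% of all. Without that array, irradiation of cells labelled Wip1-/- has no value. The Dusp8 ratio after irradiation of Wip1+/+ cells was 1.86 to 1.92 in the 7 alternatives that kept it. The additive limma fit called 0 members for either effect. Signal over background limits dim probe sets, such as those of Dusp8.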
